A study of Arabidopsis thaliana with 96 samples.

Results

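Leaf chromatin was examined at 10 flowering-time genes of *Arabidopsis thaliana* that are known for natural variation, out of 37887 annotated nuclear genes. They were chosen by name and were FRI (AT4G00650), FLC (AT5G10140), FLM (AT1G77080), MAF2 (AT5G65050), MAF3 (AT5G65060), MAF4 (AT5G65070), MAF5 (AT5G65080), CO (AT5G15840), FT (AT1G65480) and SOC1 (AT2G45660). A peak was given to a gene when its summit lay between 1500 bp upstream of the annotated start (6000 bp for FT) and 500 bp past the annotated end. The assay was ATAC-seq, in which the Tn5 transposase inserts adapters into accessible DNA, on leaf nuclei isolated by sorting. Natural accessions Ad-0, En-2, Hi, Mt, Og and Col-0, the reference accession, were compared, all grown at 22 °C with 16 h of light and 8 h of darkness, and each had 4 lists of peaks. No plant in these groups carried a label of a mutant, a transgene or a treatment, and plant age is not given in the sources used here. A further group is labelled Col-0 untreated, and its headers name naked DNA, so it served as a background without chromatin. Leaf holds many cell types, and fewer cells with an open site cannot be told apart from a site that is less open in every cell.

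In *A. thaliana*, FRI is a scaffold protein that raises transcription of FLC, a MADS domain repressor of flowering. FLM and MAF2 to MAF5 are relatives of FLC that also act in the timing of flowering, and MAF2 to MAF5 lie in a tandem array. CO, a B-box protein that accumulates in long days, activates FT in the leaf, and the FT protein travels to the shoot apex, where SOC1 is among the genes that are turned on. FLC represses both FT and SOC1, and prolonged cold silences FLC. Accessible sites mark DNA that is free of nucleosomes, often at promoters and enhancers, and an accessible site does not by itself show that the gene nearby is transcribed.

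The sequences that carry the results are given first, since nearly all peaks of these genes fell outside the gene bodies. Each is the plus strand of the reference around the median summit of a region, where a region is a set of overlapping peaks merged over the 24 lists. Each run holds at most 300 bp, was cut so as to hold no annotated exon and was read from the RefSeq TAIR10.1 assembly, whose 5 nuclear chromosomes have the same lengths as TAIR10. Capitals mark matches on either strand to CCAAT (the core bound by NF-Y factors), CACGTG (the G-box), CCACA (the core of the CO-responsive element), the CArG box of MADS domain proteins, and GGCCCA, a core of site II elements. GGCCCA was added after the windows had been read. The sequences are those of the reference, and the alleles of the other accessions were not used here. Summits of Col-0 and of the other 5 accessions were offset by up to about 84 bp around some genes, so the printed windows and the distances from genes carry that uncertainty for the lists of all 6 accessions.
KEA2 to FRI, chr4:268098-268394: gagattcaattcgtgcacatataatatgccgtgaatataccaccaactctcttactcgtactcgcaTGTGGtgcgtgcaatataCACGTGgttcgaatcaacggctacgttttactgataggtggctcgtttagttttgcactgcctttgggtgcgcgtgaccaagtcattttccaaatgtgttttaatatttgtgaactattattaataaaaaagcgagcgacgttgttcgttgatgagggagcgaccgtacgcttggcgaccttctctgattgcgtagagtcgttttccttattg
AGL6 to SOC1, chr2:18806828-18807127: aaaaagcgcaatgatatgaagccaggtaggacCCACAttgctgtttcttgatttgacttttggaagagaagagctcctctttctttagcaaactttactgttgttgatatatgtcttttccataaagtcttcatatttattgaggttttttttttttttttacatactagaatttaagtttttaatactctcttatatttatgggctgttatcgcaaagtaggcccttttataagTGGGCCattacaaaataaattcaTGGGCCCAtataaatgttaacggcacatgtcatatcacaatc
FLM upstream, chr1:28954485-28954783: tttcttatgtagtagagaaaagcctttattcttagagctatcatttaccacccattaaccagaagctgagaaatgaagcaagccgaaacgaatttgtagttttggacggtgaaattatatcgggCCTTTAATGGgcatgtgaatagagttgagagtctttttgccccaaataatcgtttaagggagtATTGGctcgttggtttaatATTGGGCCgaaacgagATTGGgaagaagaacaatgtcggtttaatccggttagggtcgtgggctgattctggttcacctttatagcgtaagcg
MAF3 to MAF4, chr5:25991556-25991855: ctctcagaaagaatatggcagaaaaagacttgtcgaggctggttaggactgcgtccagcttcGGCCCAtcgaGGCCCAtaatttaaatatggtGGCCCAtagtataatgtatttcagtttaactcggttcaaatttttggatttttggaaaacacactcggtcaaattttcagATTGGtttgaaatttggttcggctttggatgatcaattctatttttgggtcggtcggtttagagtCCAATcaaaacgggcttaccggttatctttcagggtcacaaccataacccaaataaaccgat
MAF5 upstream, chr5:25996957-25997256: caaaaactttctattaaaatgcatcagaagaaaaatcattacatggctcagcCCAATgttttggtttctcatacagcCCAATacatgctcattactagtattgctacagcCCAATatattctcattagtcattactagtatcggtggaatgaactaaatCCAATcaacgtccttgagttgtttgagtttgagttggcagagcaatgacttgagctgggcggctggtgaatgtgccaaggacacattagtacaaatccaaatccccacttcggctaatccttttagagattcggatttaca
FLC 3′ side, chr5:3173183-3173370: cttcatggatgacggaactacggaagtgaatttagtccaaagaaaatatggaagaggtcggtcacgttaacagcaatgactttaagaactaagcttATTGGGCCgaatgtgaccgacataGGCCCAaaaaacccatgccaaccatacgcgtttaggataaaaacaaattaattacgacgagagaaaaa
FT distal upstream, chr1:24326740-24326910: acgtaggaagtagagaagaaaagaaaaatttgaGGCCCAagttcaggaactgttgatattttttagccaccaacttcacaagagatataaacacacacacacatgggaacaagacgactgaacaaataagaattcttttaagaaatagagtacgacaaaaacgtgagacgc

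The window between KEA2 and FRI held 1 CACGTG and 1 CCACA. Windows of that length around the summits of all 31383 regions held CACGTG in 11.9% and CCACA in 41.5% of cases. Unlike the member windows, the windows of all regions were centred on the summit and not cut at exons. The shares in this paragraph therefore compare windows that were drawn differently. The FLM window held 3 CCAAT, a number reached by 5.78% of all regions at that length, and 1 CArG box, found in 2.95%. A GGCCCA there overlapped 1 of the CCAAT. The MAF5 window held 4 CCAAT, a number reached by 1.28% of all regions. The window between MAF3 and MAF4 held 2 CCAAT, reached by 20.5%, and 3 GGCCCA, reached by 1.74%. The window past the end of SOC1 also held 3 GGCCCA, of which 2 overlapped on opposite strands in TGGGCCCA, together with 1 CCACA. On the 3′ side of FLC there were 2 GGCCCA, reached by 6.27% of regions at that length, and 1 CCAAT that overlapped 1 of them. The distal FT window held 1 GGCCCA and none of the other motifs. Of the 14 member windows that could be read free of exons, 7 held GGCCCA, 5 held CCAAT, 3 held CCACA, 1 held CACGTG and 1 held a CArG box. Over all regions, at the lengths of these windows, the shares were 13.5 to 21.4% for GGCCCA, 28.5 to 54.9% for CCAAT, 20.3 to 41.8% for CCACA, 6.66 to 12% for CACGTG and 1.22 to 2.96% for the CArG box. GGCCCA was chosen on these windows, so its count supports nothing. A match describes the letters of a window and is not a mapped binding site.

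The lists of the 6 accessions came from 1463227 to 4754108 tags and held 5564 to 21327 nuclear peaks. Ad-0 and Hi had the fewest peaks, at most 6472 in a file, and Mt had the most, at least 18995, although Mt had fewer tags than either. Pileups of 2 files of the same accession differed by less than sampling noise, with a dispersion index (1 for random draws from 1 library) of 0.815 to 0.923 over 36 pairs, against 2.51 to 7.83 over 15 pairs of accessions. Each accession was therefore counted as 1 sample, an SD over its 4 files was taken to cover technical spread only, and no test between accessions was possible. The labels' tissue was checked on marker genes. All 5 mesophyll markers had a peak in all 4 files of En-2, Mt, Og and Col-0, and 4 of 5 in Ad-0 and in Hi, whereas none of the 3 flower markers (AG, AP3 and PI) did so in any accession. Lists for other cell types gave 0 to 1 of 2 companion cell, 0 to 1 of 2 epidermis, 0 to 1 of 3 guard cell, 0 to 1 of 3 shoot meristem, 1 to 2 of 2 seed and 0 to 1 of 2 root markers per accession. A peak in a window can belong to a neighbouring gene, and the part of cell type makeup in the results below was not tested.

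FRI was the only one of the 10 genes with a peak in all 24 files, a call made for 8.87% of all annotated nuclear genes and 10% of protein-coding genes. FT, MAF2 and SOC1 had a peak in all 4 files of no accession, as did 39.5% of protein-coding genes. For SOC1 this depended on the 500 bp limit past the end. A region there had a peak in all 24 files, with 16 of its 24 summits outside the limit. The number of genes with a peak in all 4 files was 2 in Ad-0, 5 in En-2, 1 in Hi, 5 in Mt, 6 in Og and 6 in Col-0. The same call was made for 14.5% of all annotated nuclear genes in Ad-0, 28% in En-2, 14.1% in Hi, 47.1% in Mt, 35.3% in Og and 39.2% in Col-0. Among protein-coding genes only, it was made for 16.3%, 32.3%, 15.7%, 54.7%, 40.7% and 44.7%, in the same order. The members' share was above this background in En-2, Og and Col-0 and near it in Ad-0, Hi and Mt, with only 10 genes and with MAF3 and MAF4 counted on 1 shared site. In untreated Col-0, with at least 10822758 tags per file, none of the 10 genes had a peak, against 0.781% of all annotated and 0.441% of protein-coding genes with a peak in all 4 files. The nearest peak of that group lay 22.6 kb (MAF2) to 268 kb (FLM) from a member window.

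**Figure D1:**
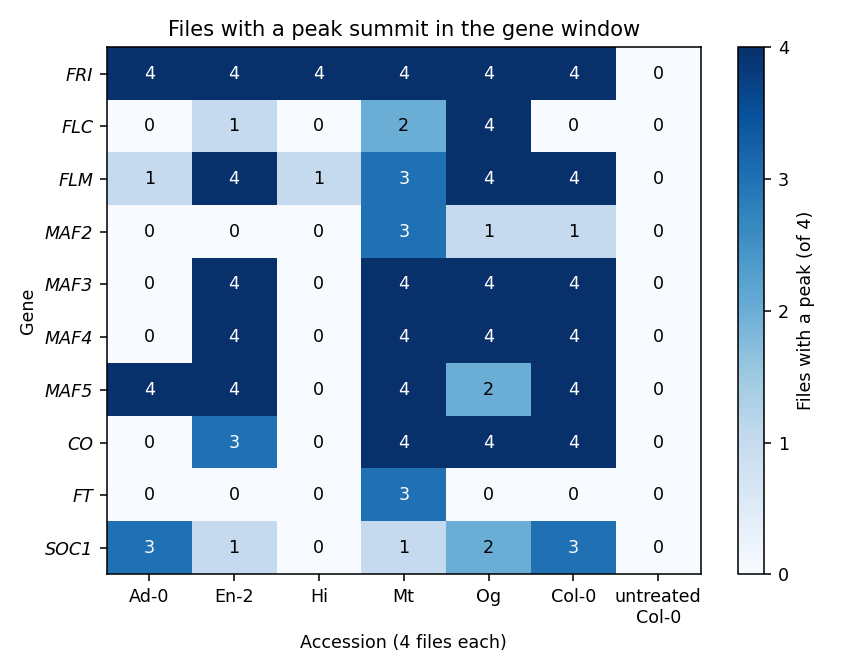
Number of files (of 4) with a peak summit in the window of each gene, by accession, with untreated Col-0 in the last column. FRI is at 4 in all 6 accessions, MAF3 and MAF4 are at 4 in En-2, Mt, Og and Col-0 and at 0 in Ad-0 and Hi, and the untreated column is at 0 throughout.

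Summits fell outside the transcribed part of these genes. The 134 distinct peaks formed 17 regions, of which 8 were found in all 4 files of at least 1 accession. Only 8 of the summits, counted per gene, lay inside a member gene, and the farthest of these was 116 bp past the start. No file of any accession had a summit between 200 bp past the start and the end of any of the 10 genes, including the 6067 bp of FLC, whose large first intron is known for its role in silencing by cold. Of protein-coding genes at least 2500 bp long, as all 10 members are, 36.4% had such a summit in at least 1 of the 24 files. Within 500 bp of the start, a peak in all 4 files was found for 1 member in Ad-0, En-2, Mt and Col-0 and for 0 in Hi and Og, against 9%, 19.3%, 35.8% and 28.9% of protein-coding genes in the first set and 9.49% and 26.1% in Hi and Og. In untreated Col-0 the member count was 0, against 0.171%. The member counts depended on the 500 bp limit, since summits upstream of MAF4 lay on both sides of it. They lay 470 to 593 bp upstream in En-2, 167 to 529 in Mt, 460 to 676 in Og and 159 to 513 in Col-0. Col-0 summits around MAF4 were also offset by 84 bp. The windows were all at least 95.3% unique in the reference at the tag size of 36 bases, and all 17 regions were 100% unique, those of the similar MAF genes included.

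**Figure D2:**
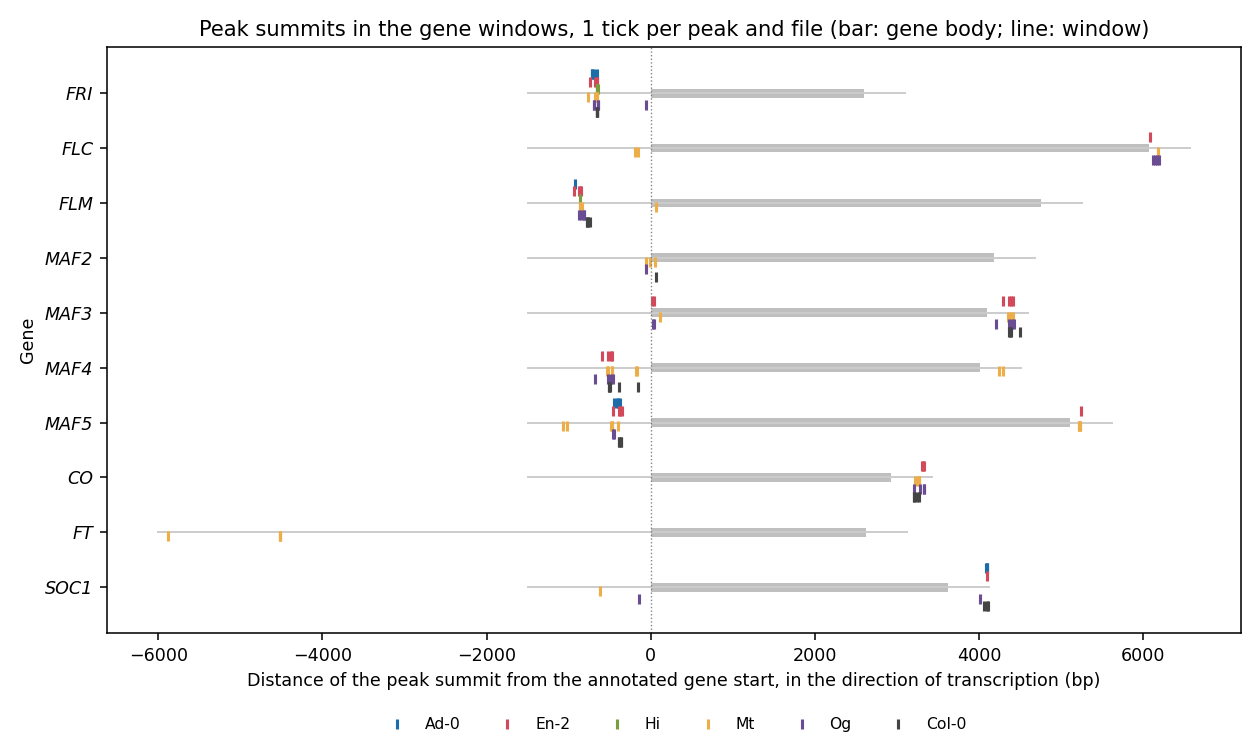
Distance of each peak summit from the annotated gene start (x axis, bp, in the direction of transcription) for the 10 genes (y axis), with 1 tick per peak and file, coloured by accession. Ticks cluster upstream of the start or past the end of the grey gene bodies, and none lies deeper than 116 bp inside a gene.

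FRI carried the strongest peak of the set, and it lay in a gap shared with a second gene. The region spanned chr4:267945-269044, and its median summit, at 268244, was 657 bp upstream of the FRI start and 147 bp upstream of the start of KEA2 (AT4G00630), which encodes a potassium antiporter of the chloroplast envelope and is transcribed away from FRI. The peak therefore cannot be assigned to either gene from its position. The height of a peak is given as its pileup, the number of extended tags that cover the summit, per 1000000 tags of the file (ppm), or as its pileup in tags where stated.

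At FRI the 4 Ad-0 files gave 31.8, 29.1, 20.9 and 24.3 ppm, a mean of 26.5 ± 4.89 (SD, 4 files). En-2 gave 50.6, 57.4, 66.1 and 60.9, a mean of 58.7 ± 6.51. All En-2 files were above all files of the other accessions, and Ad-0 and Og were the lowest. Hi gave 35.9, 40.8, 35.0 and 47.5 (mean 39.8 ± 5.75), and Mt gave 37.0, 35.4, 37.1 and 37.3 (mean 36.7 ± 0.887). Og gave 34.4, 36.9, 26.6 and 31.8 (mean 32.4 ± 4.41), and Col-0 gave 43.6, 42.6, 45.6 and 46.5 (mean 44.6 ± 1.81). Below En-2, the files of Col-0, Hi, Mt, Og and Ad-0 each overlapped with those of the next accession in this order.

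The accessions also differed in the height of their peaks in general. The median over the 2209 regions with a peak in all 24 files was 12.4 ppm in Ad-0 and 12.7 in Hi, 17.8 in Og, 17.9 in Col-0, 22.6 in Mt and 22.7 in En-2. Divided by these medians, the FRI region stood at 2.14 in Ad-0, 2.58 in En-2, 3.13 in Hi, 1.62 in Mt, 1.82 in Og and 2.49 in Col-0. En-2 was thus no longer the highest once scaled, and Hi was. The share of the 2209 regions that were at least as high as FRI was 3.44% in Col-0, 3.89% in En-2, 4.39% in Hi, 9.96% in Ad-0, 10.9% in Og and 11.5% in Mt.

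No accession differed by 2-fold or more from the median of the other 5 at FRI. The log2 of that ratio was 0.55 in Hi, 0.27 in En-2, 0.22 in Col-0, -0.22 in Ad-0, -0.45 in Og and -0.62 in Mt. Among all 2209 regions, 13.9% were at least as far above the other accessions in Hi (19.1% in either direction) and 11.7% at least as far below them in Mt (16.7% in either direction). With fold enrichment over local background in place of the pileup, the log2 was 0.74 in Hi, 0.32 in Ad-0 and 0.09 in Col-0. It was -0.09 in En-2, -0.22 in Og and -0.45 in Mt, so Ad-0 and En-2 changed sign. In ppm without the scaling no sign changed, but En-2 was at 0.68 and Hi at 0.12. A 2-fold rise over the other accessions was called for 4.35% of these regions in Ad-0, 1.54% in En-2, 3.76% in Hi, 0.498% in Mt, 1.09% in Og and 0.453% in Col-0, and a 2-fold fall for 2.94%, 3.03%, 0.453%, 3.62%, 0.634% and 0.996%, in the same order. The FRI peaks were wide, from 546 bp in Hi to 1039 bp in Og, and 1 Og file listed a second, small peak 58 bp upstream of the FRI start.

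**Figure D3:**
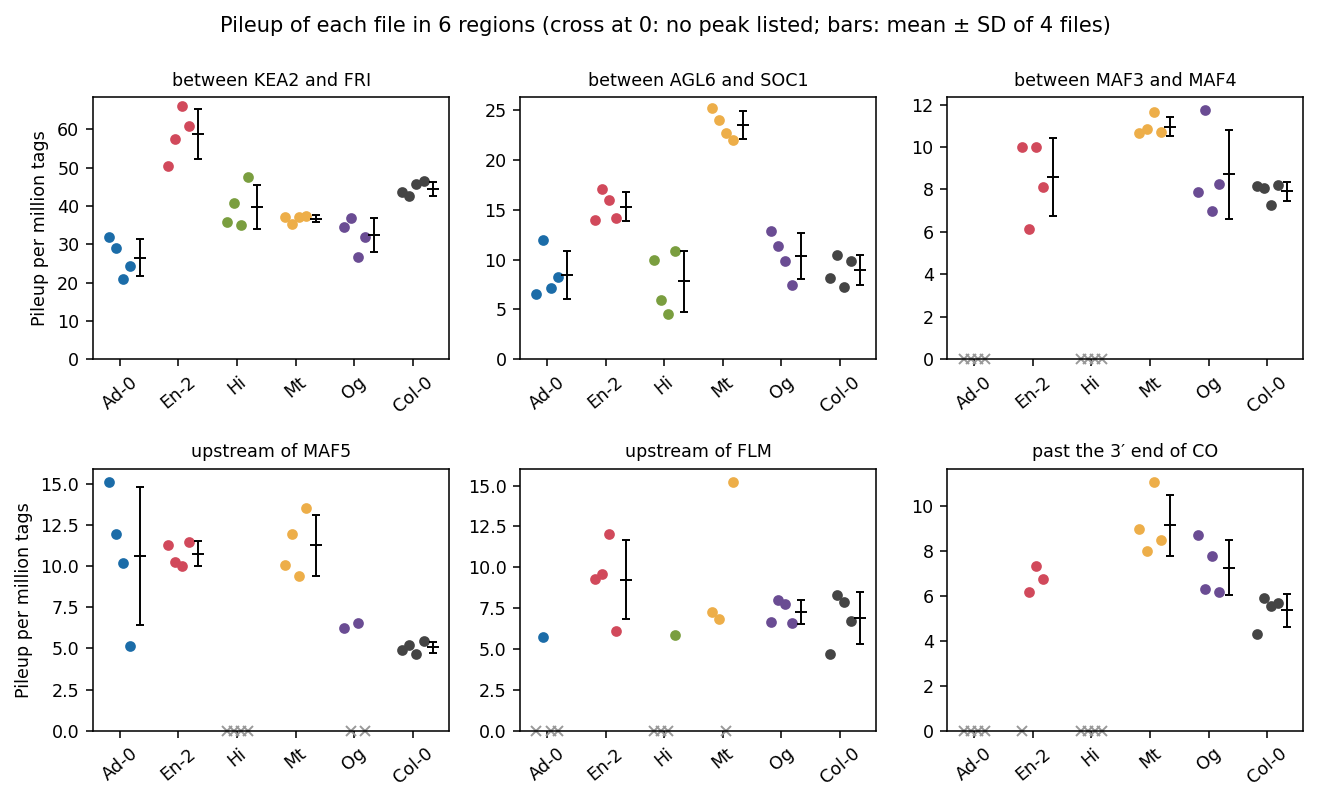
Pileup in ppm, per 1000000 tags (y axis), in each of the 4 files of 6 accessions (x axis) for 6 regions, with points for files, bars for the mean ± SD where all 4 files list a peak, and crosses at 0 for files that list none. En-2 lies above the other accessions between KEA2 and FRI, Mt lies above them between AGL6 and SOC1, and Ad-0 and Hi have crosses only between MAF3 and MAF4 and past the end of CO.

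FLC had no peak at its start in any accession but Mt, and there in 2 of 4 files only, 154 and 191 bp upstream, with pileups of 9 and 12 tags. The more regular site lay past the 3′ end of FLC (chr5:3173183-3173475), with summits 18 to 125 bp beyond the annotated end. Antisense transcripts of FLC, known as COOLAIR and involved in its silencing, start on this side of the gene, and the annotation places the start of a long noncoding RNA on the opposite strand (AT5G01675) 79 bp from the median summit. The printed FLC sequence ends at the base before that start.

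All 4 Og files listed the site past the end of FLC, with 5.81, 5.45, 5.73 and 4.95 ppm. En-2 and Mt listed it in 1 file each, at 5.41 and 7.29 ppm. Ad-0, Hi and Col-0 listed none. At the depth of Col-0, the Og level would give a pileup of about 25.6 tags, and the lowest pileup in the Col-0 lists was 14. In Ad-0 and Hi the corresponding pileups were 10.7 and 12.1, or 7.45 and 8.64 when scaled to the peak height of the accession, against lowest listed pileups of 7 and 9.

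FLM, the FLC relative away from the MAF array, had its site 741 to 934 bp upstream of the start (chr1:28954485-28954905), 1053 bp from the neighbouring gene AT1G77060. En-2 gave 9.32, 9.57, 12.02 and 6.09 ppm (mean 9.25 ± 2.43). Og gave 6.64, 7.97, 7.78 and 6.60 (mean 7.25 ± 0.729), and Col-0 gave 4.72, 8.29, 7.89 and 6.73 (mean 6.91 ± 1.602). These 3 accessions overlapped. Mt listed the site in 3 files, at 7.29, 6.85 and 15.2, where the last was above every other file at this site. Ad-0 listed it in 1 file at 5.72 and Hi in 1 file at 5.88. Scaled by the median peak height, En-2, Og and Col-0 stood at 0.407, 0.407 and 0.386, closer together than the SD of any of them, whereas their means in ppm ran from 6.91 to 9.25.

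The array of MAF2 to MAF5 held its main sites in the gaps before MAF4 and before MAF5 rather than at the starts of MAF2 and MAF3. The site between MAF3 and MAF4 (chr5:25991374-25992113) lay in the windows of both genes, with summits 159 to 676 bp upstream of MAF4 and 105 to 622 bp past the end of MAF3. Mt gave 10.7, 10.8, 11.6 and 10.7 ppm (mean 11.0 ± 0.453). En-2 gave 9.98, 6.15, 10.02 and 8.11 (mean 8.57 ± 1.84), and Og gave 7.88, 11.7, 6.96 and 8.25 (mean 8.71 ± 2.096). Col-0 gave 8.15, 8.07, 7.25 and 8.20 (mean 7.92 ± 0.451). Mt exceeded every En-2 and Col-0 file but not 1 of the Og files, and after scaling the 4 means lay between 0.377 (En-2) and 0.489 (Og).

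Neither Ad-0 nor Hi listed a peak between MAF3 and MAF4. At the depth of Ad-0 the levels of the other accessions would give pileups of 15.5 to 21.4 tags, or 9.11 to 11.8 when scaled, against a lowest listed pileup of 7. At the depth of Hi they would give 17.5 to 24.2, or 10.6 to 13.7 when scaled, against 9. The expected heights were thus above the lowest that these lists held. A list gives no coverage where no peak was called, so the signal at the site in Ad-0 and Hi is not known.

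The site upstream of MAF5 (chr5:25996773-25997284, summits 346 to 479 bp upstream) had a different set of accessions. Ad-0 listed it in all 4 files, at 15.1, 11.96, 10.2 and 5.16 ppm (mean 10.6 ± 4.17). En-2 gave 11.3, 10.3, 10.02 and 11.5 (mean 10.8 ± 0.743), and Mt gave 10.1, 11.98, 9.42 and 13.6 (mean 11.3 ± 1.87). Col-0 was lower in all 4 files, at 4.94, 5.24, 4.69 and 5.47 (mean 5.08 ± 0.341), although 1 Ad-0 file fell in this range. Og listed the site in 2 files, at 6.22 and 6.55, and Hi in none. Scaled by the median peak height, Ad-0 stood at 0.857, 1.72-fold above the next accession, Mt, at 0.498, with En-2 at 0.474 and Col-0 at 0.284. In ppm without the scaling Ad-0 was at 0.942 of Mt, so the higher rank of Ad-0 came from the scaling. At the depth of Hi, the other levels would give 11.2 to 24.8 tags, or 7.96 to 24.01 when scaled, against a lowest listed pileup of 9.

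The starts of MAF2 and MAF3 held weak peaks in some files only. The MAF2 start had a peak in 3 Mt files, 1 Og file and 1 Col-0 file, with pileups from 9 to 22 tags. The MAF3 start had one in 2 En-2 files, 1 Mt file and 2 Og files, with pileups from 8 to 19 tags. Past the end of MAF5 (chr5:26002665-26002830), all 4 Mt files listed a peak, at 7.29, 5.70, 8.86 and 7.34 ppm, and En-2 did so in 1 file at 6.68. The site lay 103 to 134 bp past the end of MAF5 and 1150 bp before BST1. Ad-0, Hi, Og and Col-0 listed none there. The Mt level would give 34.1 tags at the depth of Col-0 (27.0 when scaled), against a lowest listed pileup of 14, and 17.6 in Og (13.9 when scaled), against 8. It would give 14.2 tags in Ad-0 (7.80 when scaled), against 7, and 16.1 in Hi (9.04 when scaled), against 9. Over single files the lowest listed pileup was 7 to 8 in Ad-0 and 9 to 10 in Hi, so both scaled values fell within that range.

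Col-0 summits were offset from those of the other accessions around some of these genes. The median offset over regions within 50 kb was 84 bp at MAF4 and MAF5, 79.3 bp at FLM, 71 bp at FT, 43.5 bp at SOC1, 29.6 bp at CO, 6 bp at FLC and 1.25 bp at FRI. The sites of the array themselves were mixed. The median Col-0 summit between MAF3 and MAF4, 25991696, lay between those of En-2 and Og, both 25991690, and that of Mt, 25991720. Upstream of MAF5 the median Col-0 summit, 25997131, lay to the right of those of En-2 (25997124), Ad-0 (25997100), Og (25997054) and Mt (25997029). Which of the lists departs from the reference coordinates cannot be told apart here.

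**Figure D4:**
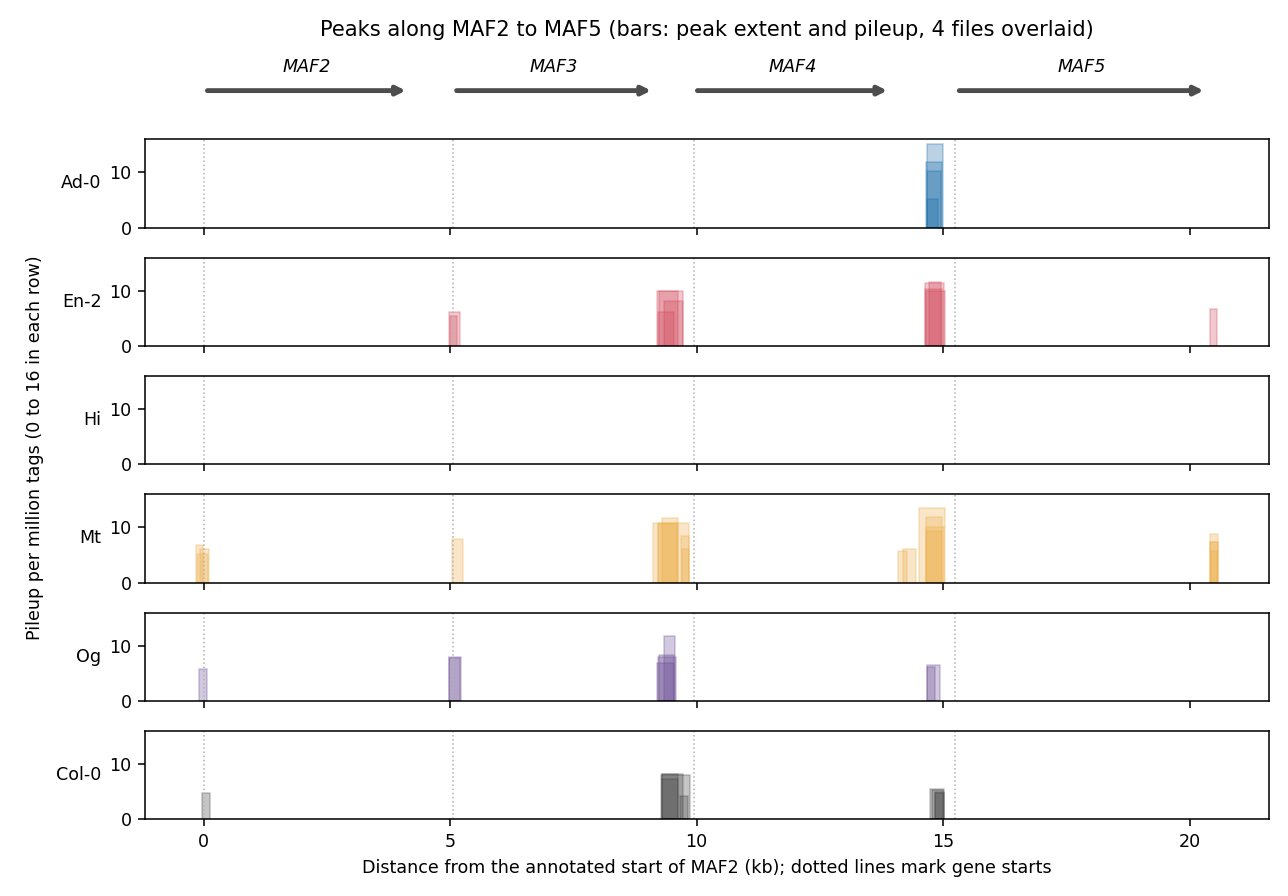
Peaks along MAF2 to MAF5 by distance from the annotated start of MAF2 (x axis, kb), with the extent and pileup in ppm of each peak (y axis, 0 to 16 in each row) and the 4 files of an accession overlaid. En-2, Mt, Og and Col-0 have bars before MAF4, Ad-0 has bars before MAF5 only, and Hi has none.

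CO, the long-day activator of FT, had no peak within 1500 bp upstream of its start in any file. Its site lay past the 3′ end (chr5:5169323-5170005), where the annotation also has a long noncoding RNA (AT5G02465), the MIR865 gene and the end of a bZIP gene (AT5G15830), so the site cannot be assigned to CO alone. Mt gave 8.97, 7.99, 11.1 and 8.47 ppm (mean 9.13 ± 1.36), and Og gave 8.71, 6.29, 7.78 and 6.19 (mean 7.24 ± 1.22). Col-0 gave 4.29, 5.89, 5.54 and 5.68 (mean 5.35 ± 0.721). Every Col-0 file was below every Mt and Og file. En-2 listed the site in 3 files, at 6.15, 7.34 and 6.76, and Ad-0 and Hi in none. At the depth of Hi, the levels of Mt, Og and Col-0 would give 11.8 to 20.1 tags, or 8.38 to 11.4 when scaled, against a lowest listed pileup of 9. In Ad-0 they would give 10.4 to 17.8, or 7.23 to 9.84 when scaled, against 7.

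FT, which encodes the mobile signal for flowering, had peaks in Mt only, and none at its start. Mt listed a site 4516 to 4517 bp upstream (chr1:24326740-24326910) in 3 of 4 files, with pileups of 12, 9 and 10 tags, or 6.73, 5.13 and 5.65 ppm. A single Mt file listed a further peak 5887 bp upstream with 6 tags, the lowest pileup in the Mt lists. The summits of the 3 files lay within 1 bp of each other. The next gene on that side, FAS1, starts 2765 bp from the site. FT is known to be expressed in phloem companion cells, a small part of leaf nuclei. Of the companion cell markers fixed for this purpose, SUC2 had a peak in all 4 files of no accession and AHA3 in those of En-2, Mt, Og and Col-0. The 4 Mt files held 18995 to 21327 peaks, and the file without the distal FT peak had the fewest.

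SOC1, an integrator of the pathways, had its main site past the 3′ end, between SOC1 and the convergent MADS domain gene AGL6 (chr2:18806691-18807336). The region had a peak in all 24 files, but only 8 of its 24 summits fell inside the 500 bp limit. The nearest summit inside the limit lay 490 bp past the end and the nearest outside lay 502 bp past it, so the count of files for SOC1 (3 in Ad-0, 1 in En-2, 0 in Hi, 1 in Mt, 2 in Og and 3 in Col-0) reflects that limit and 2 weak upstream peaks. The offset of 43.5 bp around SOC1 is larger than the distance of these summits from the limit. The 2 weak upstream peaks lay 137 bp upstream in 1 Og file and 619 bp upstream in 1 Mt file. No file of the other accessions had a peak within 1500 bp upstream of SOC1.

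Between AGL6 and SOC1, Mt gave 25.2, 23.96, 22.7 and 22.0 ppm (mean 23.5 ± 1.42). En-2 gave 14.0, 17.1, 16.0 and 14.2 (mean 15.3 ± 1.49). All Mt files were above all En-2 files, and those were above all files of the other accessions. Og gave 12.9, 11.3, 9.83 and 7.43 (mean 10.4 ± 2.31), and Col-0 gave 8.15, 10.5, 7.25 and 9.89 (mean 8.94 ± 1.498). Ad-0 gave 6.56, 11.96, 7.12 and 8.26 (mean 8.48 ± 2.43), and Hi gave 9.99, 5.96, 4.48 and 10.9 (mean 7.82 ± 3.08). The last 4 accessions overlapped.

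Scaled by the median peak height, the SOC1 region stood at 1.04 in Mt and between 0.4997 and 0.684 in the other accessions. Mt was 1.69-fold above the median of the others (log2 of 0.75), short of the 2-fold limit, and 2.54% of all common regions were at least as far above the others in Mt, or 10.4% in either direction. In ppm without the scaling the log2 ratio was 1.39. The Mt summits also lay apart, 678 to 683 bp past the end of SOC1 in all 4 files, whereas the summits of the other accessions lay 389 to 615 bp past it. The printed SOC1 sequence begins just beside the Mt summits and holds those of the other accessions.

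**Figure D5:**
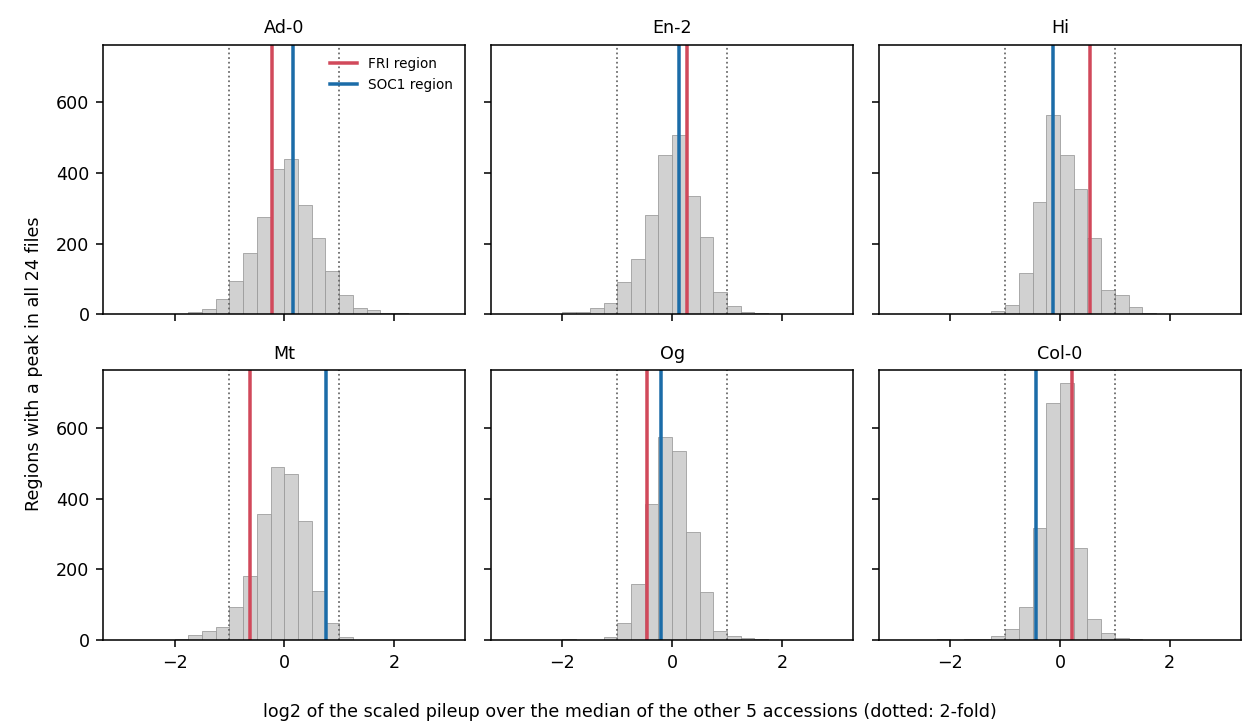
Number of regions with a peak in all 24 files (y axis, 2209 in all) by the log2 of the scaled pileup of an accession over the median of the other 5 (x axis), in 1 panel per accession, with lines for the FRI and SOC1 regions. Both lines fall inside the dotted 2-fold limits in every panel, and those of Mt are the farthest apart, at -0.62 for FRI and 0.75 for SOC1.

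Counted by region, 8 sites of these genes had a peak in all 4 files of at least 1 accession, and Hi lacked 5 of them, Ad-0 4, Col-0 2, Og 1, and En-2 and Mt 0. Of all 16778 such regions in the genome, 55.2% were without a peak in any Hi file, 53.4% in Ad-0, 12.6% in Col-0, 14.4% in Og, 26.1% in En-2 and 5.64% in Mt. Ad-0 and Hi lacked the most in both counts. En-2 lacked none of the 8, but it listed 2 of them in 1 file only. With 8 sites, the counts of Col-0 and Og cannot be told apart from the genome-wide shares. A further 9 regions were in all 4 files of no accession, and 7 of the 17 regions were found in 1 accession only, 6 of them in Mt and 1 in Og. Of all 31383 regions, 27.1% were found in Mt only, 3.42% in Og, 3.03% in Col-0, 1.34% in En-2, 0.331% in Ad-0 and 0.108% in Hi. None of the 8 sites was in all 4 files of 1 accession and in no file of the others. By that stricter call, the genome-wide share was 4.33% for Mt, 1.31% for Col-0, 0.381% for Og, 0.0477% for En-2, 0.0238% for Ad-0 and 0.00596% for Hi.

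Other genes of the flowering pathways were counted in 6 lists, 44 genes in all. A peak in all 4 files was found for 8 of them in Ad-0, 19 in En-2, 13 in Hi, 27 in Mt, 22 in Og and 22 in Col-0. These are 18.2%, 43.2%, 29.5%, 61.4%, 50% and 50%, against 16.3%, 32.3%, 15.7%, 54.7%, 40.7% and 44.7% of protein-coding genes. The share was near this background in Ad-0, Mt and Col-0. The same 44 genes were counted in every accession, and the lists were chosen with earlier results of these data known. Among the 8 photoperiod genes, the count was 4 in Ad-0, 6 in En-2, Hi, Og and Col-0, and 8 in Mt, and 4 were in all 24 files. Among 10 further repressors of flowering, 4 or 5 were counted in each accession, and 3 were in all 24 files. The 4 genes of the FRI complex had 0 in Ad-0, 1 in Hi, 2 in En-2, 3 in Col-0 and 4 in Mt and Og. Of 7 genes of the autonomous pathway, which lowers FLC, 0 to 3 were counted per accession, and of 4 vernalization genes, which silence FLC after cold, 0 to 2. Of 11 floral promoters, 0 (Ad-0) to 6 (Mt) were counted. None of the 44 genes was called in untreated Col-0.

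No region of the 44 genes stood 2-fold apart in any accession, a call open only to regions with a peak in all 24 files. Of the 44 genes, 7 had a peak in their window in all 24 files. Over the genome, 0.453 to 4.35% of such regions were called per accession and direction, so the absence of a call here says little. In the lists, 21 genes had a region in all 4 files of 1 accession and in no file of another, a call made for 45.9% of protein-coding genes. By the accession without a peak, these were 20 genes in Ad-0, 17 in Hi, 8 in En-2, 5 in Col-0, 4 in Og and 1 in Mt, against 37.4%, 38.5%, 18.6%, 9.04%, 10.1% and 3.64% of protein-coding genes. Counted over the 42 pairs of a gene and such a region, of 28 genes, 54.8% were without a peak in Ad-0, 45.2% in Hi, 19% in En-2, 11.9% in Col-0, 9.52% in Og and 2.38% in Mt, each at or below the share of all such regions given above except in Ad-0, where it was 53.4%. The highest was at FRL1, a relative of FRI, 101 bp upstream of its start, with a scaled pileup of up to 0.956 in the accessions that listed it in all 4 files and no peak in Ad-0 and Hi. The sites of TOE1, an AP2-type repressor of flowering (0.746), FLX of the FRI complex (0.652), VRN1, which keeps FLC silent after cold (0.651), and LD of the autonomous pathway (0.62) were without a peak in Ad-0. Those of LFY, a regulator of floral meristem identity (0.646), and SVP, a MADS domain partner of FLC (0.621), were without one in Hi. Those of CDF3, a repressor of CO (0.664), FCA of the autonomous pathway (0.658) and FUL, a MADS domain promoter of flowering (0.597), were without one in both. Each of these values lay below 1, the median of the common regions of its accession. The CDF3 site was in all 4 files of Mt only, those of FCA and SVP in Mt and Col-0, and that of LD in Mt and Og. The FLX site was in all 4 files of Mt, Og and Col-0. The other sites named were in all 4 files of at least En-2, Mt, Og and Col-0.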

How the data were processed

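Peak lists were available for 23 accessions and an untreated Col-0 group, 96 files in all. The 28 files of Ad-0, En-2, Hi, Mt, Og, Col-0 and untreated Col-0 were used, and 68 were not used here because their positions are on the accessions' own sequences. Per the file headers and the submitters' processing notes, the authors mapped reads with Bowtie 1.2.2 (reference TAIR10) and called peaks per file with MACS2 2.1.2, without a control, keeping duplicates, at a q-value of 0.05. The notes name TAIR10 for all 96 files, which does not match the positions of the 68 files left out, and this was not resolved here. The deposited values were the pileup (coverage at the summit, in tags), the fold enrichment over local background and the −log10 q-value. Pileups were divided by the tags of the file in the header, and the accession mean was divided by the median over the 2209 regions with a peak in all 24 files (Python 3.11.15, NumPy 2.4.6, pandas 2.3.3, matplotlib 3.10.9). A region was called apart at 2-fold or more from the median of the other 5 accessions. The files held 1463227 to 4754108 tags, and a list gives no value where no peak was called. Each accession was 1 sample, so no test was made. Scripts were tested on simulated data. All 10 members are named, and at most 10 genes of the pathway lists. Members and lists were chosen with earlier results of these data known. Alternatives covered the q-value, the windows, the number of files, the scaling and each file left out.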

Additional observations from a re-analysis of the deposited data

Results flagged for a closer look

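In 28 sets of 4 files that all listed a peak, the gap of the highest or lowest file to the nearest other was set against the range of the set by Dixon's rule, and 2 sets passed its limit. Chance flags about 1 set in 20. Between KEA2 and FRI, Mt replicate 2 was at 35.4 ppm, below the other Mt files at 37.0 to 37.3 (ratio 0.864). Between MAF3 and MAF4, Col-0 replicate 3 was at 7.25 ppm, below the other Col-0 files at 8.07 to 8.20 (ratio 0.865).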

How the results depend on the processing

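No paired analysis was possible because the results came from no test and each accession was 1 sample. The count of genes with a peak in all 4 files moved with the number of files asked for and with the window. With a peak in at least 1 file it was 4 in Ad-0, 8 in En-2, 2 in Hi, 10 in Mt, 9 in Og and 8 in Col-0. With at least 3 files it was 3, 6, 1, 8, 6 and 7, in the same order. With a window of 3000 bp upstream it was 3, 6, 2, 7, 6 and 6, in that order. With any overlap of peak and window it was 3, 6, 2, 6, 7 and 7. For summits within 500 bp of the start, a setting chosen after seeing the data, it was 1 in Ad-0, En-2, Mt and Col-0 and 0 in Hi and Og. Summits upstream of MAF4 lay on both sides of that limit. With 1000 bp past the end, also chosen after seeing the data, the count was 4 in Ad-0, 6 in En-2, 2 in Hi, 6 in Mt, 7 in Og and 7 in Col-0. The share of all genes was counted for the main setting and the 500 bp setting only. The other counts here therefore cannot be set against a background. Leaving out 1 file at a time gave 2 to 3 genes in Ad-0, 5 to 6 in En-2, 1 in Hi, 5 to 8 in Mt, 6 in Og and 6 to 7 in Col-0, and the 8 in Mt came without replicate 3, which listed no peak at FLM, MAF2 and FT. No member region stood 2-fold apart, but 1 did in ppm without the scaling (SOC1 in Mt) and 2 did at a limit of 1.5-fold (SOC1 and FRI in Mt). Sites without a peak, taken as at most 1 of 4 files, were 5 in Ad-0, 2 in En-2, 6 in Hi, 1 in Mt, 1 in Og and 2 in Col-0. Leaving out 1 file gave 4 to 6, 0 to 3, 5 to 7, 0 to 1, 1 to 2 and 2 to 3, in the same order. At 1463227 to 4754108 tags per file, a site not listed may still be accessible. The causes of these shifts were not tested.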
